A study of Mus musculus with 14 samples.

Results

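A set of 9 genes was followed through all libraries of a mouse cerebellum study of Astn2, a gene for a membrane protein of neurons. The genes are P3h3, Adamts10, Leng8, Slc16a11, Abhd14b, Rgl2, Spaca6, Tanc2 and Pdzd2, out of 24100 genes in the count table. They were chosen from the measured values: each had a small p in the comparison of Astn2 knockout (KO) with wild-type (WT) whole cerebellum, without passing the adjusted threshold of 0.05. Genotype values in whole cerebellum are therefore given for them as a description, with no test. By unadjusted p they took ranks 5 to 13 of the 15997 genes tested in that comparison.

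All mice were at postnatal day 21 and carried the Tg(Pcp2-L10a-EGFP) bacTRAP transgene, in WT and KO littermates alike. Its Pcp2 promoter drives a tagged ribosomal protein in Purkinje cells, so that RNA bound to their ribosomes can be pulled down by translating ribosome affinity purification (TRAP). The input libraries come from a share of the homogenate supernatant, kept after a first centrifugation and before the purification, and stand for whole cerebellum. Input was sequenced in 3 KO samples, of which 1 was male, and in 4 WT samples, of which 1 was female. TRAP was sequenced in 4 KO samples, 2 of each sex, and in 3 WT samples, of which 1 was female. Nothing in the labels says whether each library is a separate animal, or whether an input and a TRAP library with the same number share one, so p-values measure only the spread between these samples.

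The 9 genes come from unrelated pathways. Collagens are hydroxylated in the endoplasmic reticulum and, like fibrillin microfibrils, are then assembled outside the cell; P3h3 and Adamts10 act on these matrix proteins. Leng8 is a nuclear protein with a SAC3 domain, the domain that scaffolds the mRNA export complex TREX-2. Slc16a11 is a monocarboxylate transporter, Abhd14b an alpha/beta-hydrolase, and Rgl2 an exchange factor that loads Ral GTPases with GTP. Tanc2 is a postsynaptic scaffold protein, Pdzd2 is a large protein with several PDZ domains, and Spaca6 is a sperm protein needed for fusion with the egg.

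The depth of a library lay between 18.8 and 54.2 M counts (M, 1e6). Expression levels are in CPM (counts per 1e6) after TMM scaling over all 14 libraries, and log2 fold changes are KO minus WT or TRAP minus input. The targeted gene followed its labels: Astn2 was at 0.885 ± 0.127 CPM in input KO (SD, n = 3) against 94.4 ± 6.90 in input WT (SD, n = 4), and at 1.52 ± 0.447 in TRAP KO (SD, n = 4) against 130 ± 14.8 in TRAP WT (SD, n = 3). All 12 Purkinje cell markers examined were higher in TRAP than in input in edgeR's quasi-likelihood test, with a median log2 fold change of 3.16, and all 10 granule cell markers were lower, with a median of -2.25.

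The sequence upstream of the transcript start was available for 8 of the 9 genes, in the RefSeq promoter table on GRCm38.p6. It is shown for Tanc2 and Pdzd2, the genes with higher input levels in KO, and for Leng8, which had the highest input level per length. Each window is the 250 bases before an annotated start, written 5′ to 3′ on the strand of the gene. Capitals mark motif matches on either strand: the GC box (GGGCGG), the CCAAT box (CCAAT) and the ETS site (CCGGAAG); matches may overlap.
Tanc2, chr11:105589736-105589985, plus strand: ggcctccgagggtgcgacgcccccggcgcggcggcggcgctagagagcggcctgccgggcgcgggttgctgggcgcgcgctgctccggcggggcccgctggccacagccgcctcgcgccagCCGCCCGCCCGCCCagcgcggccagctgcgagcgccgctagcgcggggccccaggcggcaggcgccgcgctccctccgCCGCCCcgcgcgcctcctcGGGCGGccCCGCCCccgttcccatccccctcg
Pdzd2, chr15:12739893-12740142, minus strand: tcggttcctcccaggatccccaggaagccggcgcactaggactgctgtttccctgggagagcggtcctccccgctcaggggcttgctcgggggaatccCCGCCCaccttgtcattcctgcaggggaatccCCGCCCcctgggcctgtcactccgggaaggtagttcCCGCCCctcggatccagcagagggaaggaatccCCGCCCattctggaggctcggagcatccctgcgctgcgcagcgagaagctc
Leng8, chr7:4136806-4137055, plus strand: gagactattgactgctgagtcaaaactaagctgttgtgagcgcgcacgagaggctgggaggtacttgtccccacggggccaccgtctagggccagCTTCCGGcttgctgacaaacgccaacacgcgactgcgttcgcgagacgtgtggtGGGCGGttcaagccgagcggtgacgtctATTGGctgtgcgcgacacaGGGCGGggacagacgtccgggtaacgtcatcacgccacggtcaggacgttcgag
The Tanc2 window holds 6 GC boxes and 46 CpG dinucleotides at a GC content of 85.6%, and the Pdzd2 window holds 4 GC boxes at 67.2% GC. The Leng8 window holds 2 GC boxes, 1 CCAAT box and 1 ETS site at 62.0% GC. Of 32851 promoters searched the same way, 32.7% held a GC box, 33.8% a CCAAT box and 6.91% an ETS site; the median GC content was 52.4%. Leng8 has a second annotated start, whose window (chr7:4137230-4137479, 70.4% GC, not shown) holds 1 GC box and no CCAAT box or ETS site. Rgl2 had 1 GC box and Slc16a11 1 CCAAT box, and the windows of P3h3, Abhd14b and Spaca6 held none of these letters.

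In whole cerebellum, 7 of the genes had lower levels in every KO library than in every WT library, and Tanc2 and Pdzd2 had higher levels in every KO library. Among all genes tested, 3.66% lay wholly below and 7.78% wholly above, but this comparison chose the genes, so nothing is read from the counts. The fitted log2 fold changes were -0.90 ± 0.12 for Slc16a11 (SE here and below), -0.87 ± 0.12 for Leng8, -0.71 ± 0.086 for P3h3, -0.64 ± 0.091 for Spaca6, -0.61 ± 0.085 for Abhd14b, -0.56 ± 0.070 for Adamts10 and -0.45 ± 0.064 for Rgl2. They were 0.63 ± 0.087 for Tanc2 and 0.55 ± 0.078 for Pdzd2. Of these, 0 of 9 passed edgeR's adjusted threshold, as the choice of the genes required. Of all genes tested 0.0188% passed it. For the 9 genes edgeR's adjusted p ran from 0.0672 to 0.0799 (Benjamini-Hochberg), and unadjusted p from 2.10e-05 to 6.99e-05.

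The edge of the set depended on small differences in p. Spaca6, last inside, and Arhgef1, first outside with a log2 fold change of -0.49, both had an unadjusted p of 6.99e-05. Bmp1 (-0.84), a protease that processes procollagen, Nav3 (0.47) and Kcnt1 (-0.59) came next. Astn2, Trim32 (1.07) and Zfhx2os (-0.92) passed the adjusted threshold, and Grin1os (-1.05, adjusted p = 0.0672) ranked between them and P3h3. How many genes passed depended on the test and on 1 library: 292 in DESeq2's Wald test and 158 in edgeR without input KO replicate 2, with all 9 among them each time. As the same libraries chose the genes, this is no test of them.

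**Figure D1:**
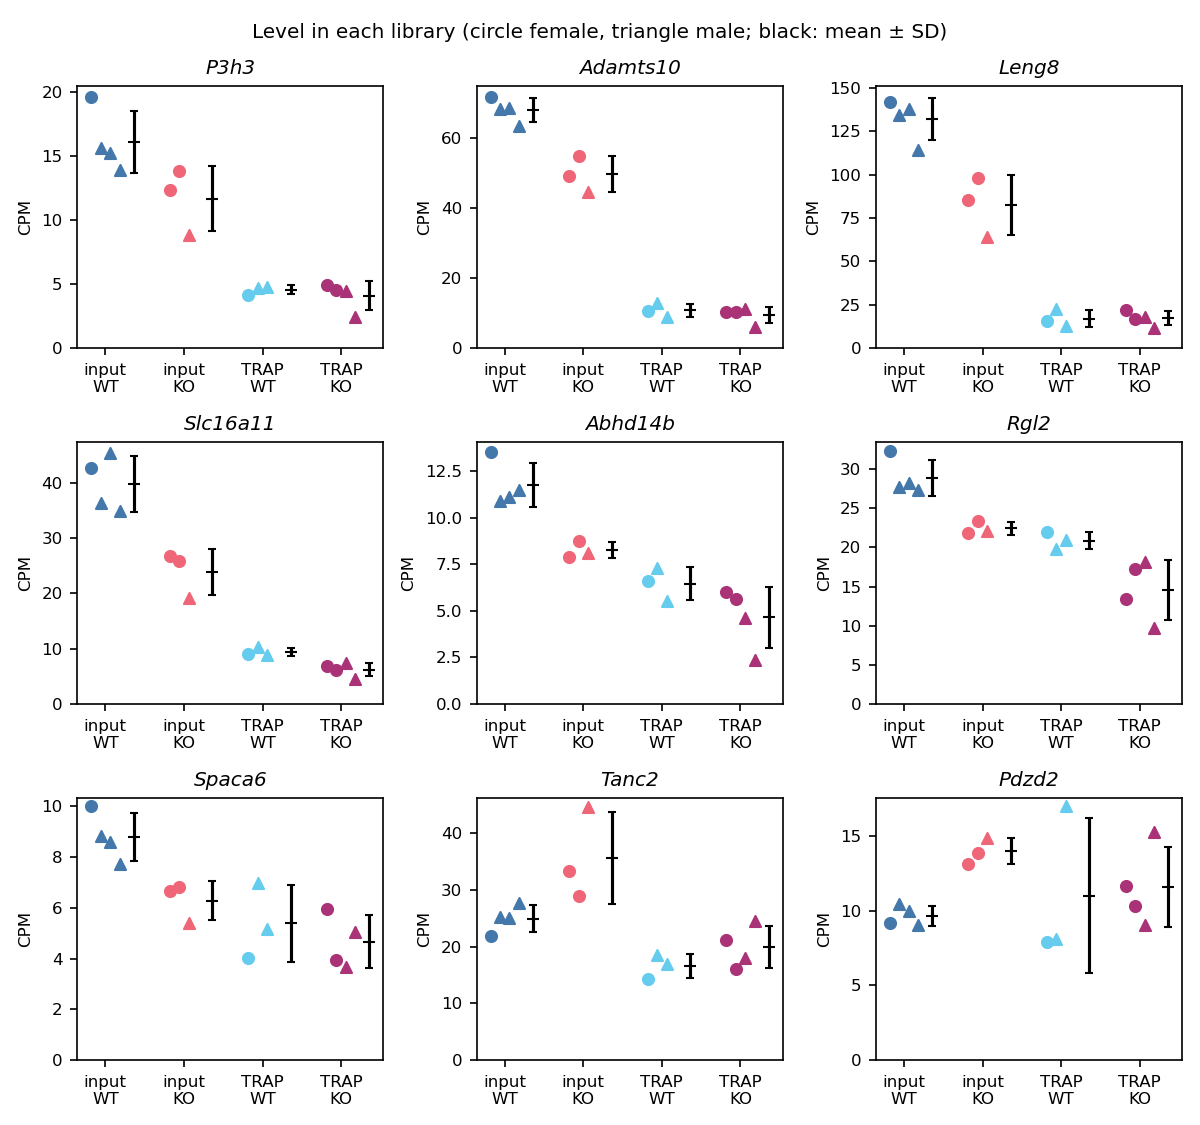
CPM of each gene in every library, by fraction and genotype; circles are female and triangles male libraries, and the black marks are the mean ± SD. In input the KO libraries of the first 7 genes lie below all WT libraries and those of Tanc2 and Pdzd2 above them, while in TRAP only Slc16a11 and Rgl2 have groups that do not overlap.

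Both matrix genes were lower in input KO and low in every TRAP library. P3h3, a prolyl 3-hydroxylase of collagen (chr6:124841089-124857746, minus strand, GRCm38.p6), was at 12.3, 13.8 and 8.83 CPM in the input KO libraries and at 19.6, 15.6, 15.2 and 13.9 CPM in input WT. The highest KO library and the lowest WT library nearly touched. In TRAP it was at 4.95, 4.55, 4.44 and 2.42 CPM in KO and at 4.15, 4.70 and 4.78 CPM in WT, groups that overlapped, with KO replicate 4 low.

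Adamts10, a secreted metalloprotease that binds fibrillin (chr17:33523646-33553782, plus strand), was at 49.1, 54.9 and 44.6 CPM in input KO and at 71.5, 68.3, 68.6 and 63.3 CPM in input WT. Every KO library was clearly below every WT library. TRAP levels were 10.2, 10.3, 11.1 and 5.94 CPM in KO and 10.5, 12.8 and 8.94 CPM in WT. Those groups overlapped, and KO replicate 4 was again the lowest.

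Other genes of collagen hydroxylation were also mostly lower in input KO, at small sizes. Of the 14 other genes of that list, 12 had a negative log2 fold change and 2 a positive one, with a median of -0.10; over all genes tested 52.2% were negative and the median was -0.0085. None passed edgeR's adjusted threshold, and 3 had an unadjusted p under 0.05 and were lower, against 7.50% of all genes: P3h4 (-0.30), Plod3 (-0.28) and P3h1 (-0.27). P3h1 is the closest relative of P3h3 here, whereas P3h2 was at 0.15. Among 28 other ADAMTS, ADAMTS-like, fibrillin and LTBP genes, 19 were on the lower side, 0 passed the adjusted threshold and 5 had an unadjusted p under 0.05: Adamtsl4 (-0.76), Ltbp4 (-0.54), Ltbp3 (-0.51), Adamts16 (-0.35) and Ltbp2 (-0.22). Adamts6, the closest paralog of Adamts10, was at -0.12, and Adamts17 at 0.04.

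Leng8 (chr7:4137013-4148177, plus strand) had the highest input level of the set per length of transcript. Its input CPM was 85.7, 98.3 and 63.9 in KO and 142, 134, 138 and 114 in WT, so that the groups were well apart. TRAP libraries gave 21.9, 17.0, 18.1 and 11.8 CPM in KO and 15.6, 22.4 and 12.9 CPM in WT, fully mixed. The other SAC3 domain and TREX-2 genes did not lean this way in input: 2 of 6 were lower, none had an unadjusted p under 0.05, and Mcm3ap, which also carries the domain, was at 0.03. Leng8 shares 263 exonic bases with Leng9 on the opposite strand, whose input log2 fold change was -0.11. The nearest gene before it, the long noncoding RNA D030047H15Rik, which lies on the opposite strand and shares no exonic base with it, was at -0.58 (unadjusted p = 0.0296, edgeR's quasi-likelihood fit). Whether reads were assigned by strand is not given in the sources used here, so reads in the bases that Leng8 shares with Leng9 cannot be told apart.

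Slc16a11 (chr11:70213695-70216414, plus strand) had the largest proportional difference in input among the genes that were lower. It was at 26.8, 25.9 and 19.1 CPM in KO and at 42.7, 36.3, 45.4 and 34.8 CPM in WT, a KO mean 39.8% lower in these libraries. In TRAP it was at 6.82, 6.20, 7.37 and 4.53 CPM in KO and at 8.98, 10.2 and 8.94 CPM in WT. Here too every KO library was below every WT library. The adjacent family member Slc16a13 was at -0.17 in input and -0.04 in TRAP. Of the 15 other genes in the transporter list, which includes the chaperones Bsg and Emb, 8 were lower in input, 0 passed the adjusted threshold and 3 had an unadjusted p under 0.05: Slc16a4 (-0.59), Slc16a10 (-0.47) and Slc16a6 (-0.21), all lower. Of all genes 52.2% were below 0 and 7.50% lower at that p.

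Abhd14b (chr9:106447737-106452923, plus strand) was at 7.89, 8.74 and 8.12 CPM in input KO and at 13.5, 10.9, 11.1 and 11.5 CPM in input WT. The KO libraries were close together and all below WT. In TRAP it was at 6.003, 5.64, 4.62 and 2.38 CPM in KO and at 6.60, 7.28 and 5.52 CPM in WT, with an overlap. Abhd14a, transcribed from the opposite strand with 207 shared exonic bases, was at -0.05 in input and -0.40 in TRAP. Of the 18 other ABHD hydrolases tested in input, 12 were on the lower side and 0 passed the adjusted threshold. Abhd16a (-0.41) and Abhd2 (-0.17) had an unadjusted p under 0.05. Over all genes tested, 52.2% were below 0 and 7.50% were lower at that p.

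Rgl2 (chr17:33929514-33937687, plus strand) had the smallest fitted difference and the smallest relative spread among input KO libraries (coefficient of variation 3.95%). Its input levels were 21.8, 23.4 and 22.0 CPM in KO and 32.3, 27.8, 28.2 and 27.3 CPM in WT. In TRAP they were 13.4, 17.2, 18.1 and 9.72 CPM in KO and 21.9, 19.8 and 20.9 CPM in WT, so that the groups did not overlap in either fraction. Of the other genes of the Ral pathway 10 of 13 were higher in input, 0 passed the adjusted threshold, and Ralgapa1 (0.25) and Ralgps2 (0.17) were higher and Rgl3 (-0.21) lower at an unadjusted p under 0.05, which 6.24% of all genes met as higher and 7.50% as lower. The relatives Ralgds (-0.02) and Rgl1 (0.14) did not reach that level.

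Adamts10 and Rgl2 lie 375731 bases apart on chromosome 17, with 18 genes of the table between them. Of the 17 of these tested in input, 11 were lower, 0 passed the adjusted threshold and 6 had an unadjusted p under 0.05, all of these lower but Kifc1 (0.73), with a median of -0.10. Over all genes tested, 52.2% were below 0, and 7.50% were lower and 6.24% higher at that p. In TRAP 8 of 16 were lower and 0 passed. These genes share a region and are not independent of each other.

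Spaca6 (chr17:17826085-17843010, plus strand) was lower in input KO and mixed in TRAP. It was at 6.65, 6.80 and 5.40 CPM in input KO and at 10.0, 8.82, 8.61 and 7.72 CPM in input WT. TRAP gave 5.96, 3.96, 3.68 and 5.06 CPM in KO and 4.01, 6.996 and 5.15 CPM in WT. The groups overlapped in TRAP. The annotated span of Spaca6 also holds the miRNA genes Mir99b, Mirlet7e and Mir125a on the same strand, and 47 bases of Mir125a fall in its exons. Only 3 of 10 other sperm-egg fusion genes were tested in input, and none of these had an unadjusted p under 0.05. The others, Izumo1 among them, had too few counts or were absent from the count table.

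Tanc2 (chr11:105589460-105929304, plus strand) was at 33.3, 28.9 and 44.7 CPM in input KO and at 21.8, 25.3, 25.01 and 27.7 CPM in input WT. The KO libraries were all higher but spread widely, with replicate 3 far above the other two. TRAP levels were 21.2, 16.1, 17.9 and 24.5 CPM in KO and 14.3, 18.5 and 16.9 CPM in WT, which overlapped. Its paralog Tanc1 was at 0.22 in input (unadjusted p = 0.0293, edgeR's quasi-likelihood fit) and at 0.15 in TRAP. Among 10 other TANC scaffold and partner genes 8 were higher in input and 0 passed; Tanc1 and Homer1 (0.21) had an unadjusted p under 0.05, against 6.24% of all genes that were higher at that level.

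Pdzd2 (chr15:12359711-12739968, minus strand) was at 13.1, 13.9 and 14.9 CPM in input KO and at 9.14, 10.5, 9.95 and 9.06 CPM in input WT. Both groups were tight and apart. In TRAP it was at 11.6, 10.3, 9.06 and 15.3 CPM in KO and at 7.89, 8.12 and 17.0 CPM in WT, with WT replicate 3 the highest library of all. Of 7 other PDZD and PDZRN genes, 3 were higher and 4 lower in input. Only Il16 (0.18) had an unadjusted p under 0.05, which 6.24% of all genes met as higher.

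Input KO replicate 3, the only male of its group, was the most extreme KO library for 7 of the 9 genes, the exceptions being Abhd14b and Rgl2. Input WT replicate 1, the only female of its group, was the highest WT library for P3h3, Adamts10, Leng8, Abhd14b, Rgl2 and Spaca6. It was the lowest for Tanc2, and not the farthest from KO for Slc16a11 or Pdzd2. Library and sex cannot be told apart in either. The female differences below rest on this library alone for WT, and the male differences on KO replicate 3 alone for KO. Within females the difference in mean log2(CPM + 1) ran from -0.68 to -0.45 for the genes that were lower, and within males from -0.998 to -0.320. Tanc2 differed by 0.49 in females and 0.76 in males, and Pdzd2 by 0.52 and 0.56. Without KO replicate 3 the fitted values were from -0.70 to -0.46 for the genes that were lower, 0.51 for Tanc2 and 0.56 for Pdzd2.

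Markers of cell types were measured beside these differences. All 8 endothelial markers had negative log2 fold changes in input KO, with a median of -0.60, 4 with an unadjusted p under 0.05 (7.50% of all genes were lower at that p, and 52.2% were below 0) and 0 past the adjusted threshold. Their summed level was 15.7 to 24.2 CPM in input KO and 23.4 to 34.1 CPM in input WT. Of 8 nuclear long noncoding RNAs, 7 were lower with a median of -0.28, 4 of them at an unadjusted p under 0.05 (Neat1, -0.74; Mir124a-1hg, -0.58; Snhg11, -0.50; Meg3, -0.44), and summed levels were 2443 to 3640 CPM in KO and 2835 to 3716 CPM in WT. Oligodendrocyte markers were lower for 8 of 10 (median -0.11), fibroblast and meningeal markers higher for 6 of 8 (median 0.18), and summed choroid plexus markers ranged from 10.0 to 1172 CPM in input KO and from 11.4 to 401 CPM in input WT. Purkinje cell markers were higher for 8 of 12 (median 0.11) and interneuron markers for 7 of 10 (0.04). Microglial markers were higher for 7 of 10 (0.05), granule cell markers for 6 of 10 (0.0047) and astroglial markers for 5 of 10 (0.05). At an unadjusted p under 0.05, 2 Purkinje cell, 2 granule cell, 2 interneuron and 1 astroglial marker were higher. At that p 2 granule cell markers and 1 astroglial marker were lower. Of all genes 6.24% were higher at that p. None of these markers was at 0 in every library of a group. Their part in the differences of the 9 genes was not tested. In bulk RNA, fewer cells of a type and less RNA per cell cannot be told apart.

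The input genotype difference also varied with transcript length and base composition. Tanc2 and Pdzd2, the higher genes, have transcripts of 11855 and 10756 bases, at the 98.8th and 98.1st percentile of length. The genes that were lower ranged from 1073 bases (Spaca6) to 5105 bases (Leng8), with GC contents from 52.3% (Spaca6) to 62.3% (Slc16a11); Tanc2 was at 48.2% and Pdzd2 at 53.5%. Over all genes the median log2 fold change went from -0.05 in the decile of shortest transcripts to 0.09 in the longest. It went from 0.05 in the decile lowest in GC to -0.08 in the highest. By library, the longest minus the shortest decile overlapped between genotypes, at 0.0083 in input KO replicate 2 and 0.047 in input WT replicate 4. The highest minus the lowest GC decile was negative in every input KO library and positive in every input WT library. With a per-library length correction, chosen after seeing the data, Tanc2 was at 0.51 and Pdzd2 at 0.44, and the others were between -0.89 and -0.44. A GC correction gave 0.61 and 0.57 for these genes and -0.82 to -0.38 for the others.

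**Figure D2:**
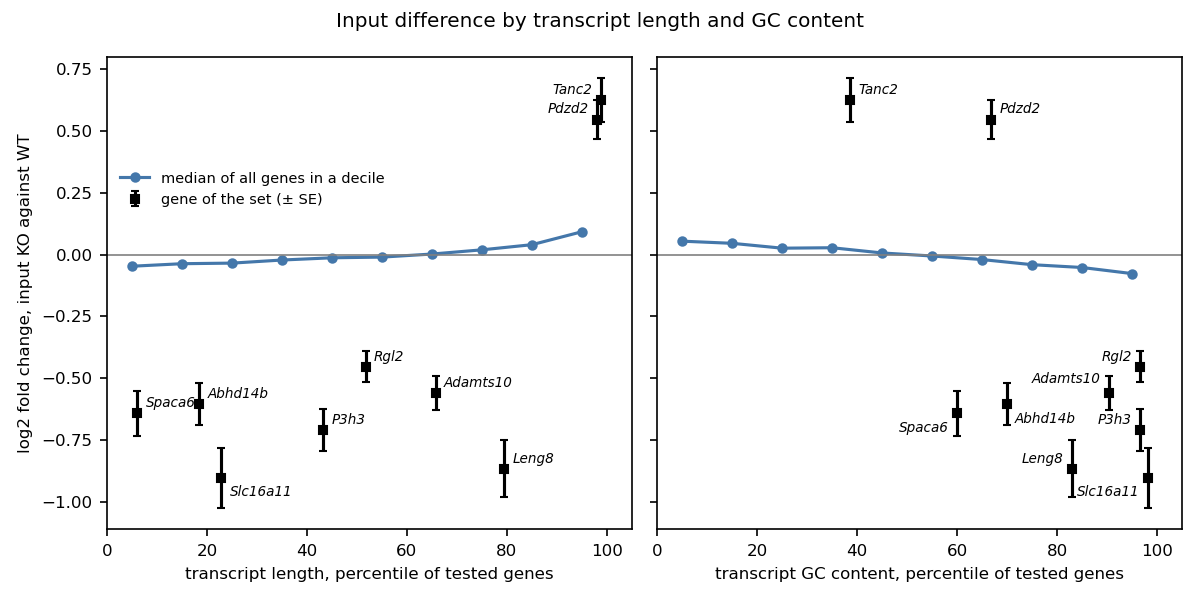
Log2 fold change of input KO against WT (vertical axis) by percentile of transcript length (left) and GC content (right); squares are the 9 genes ± SE and the line joins the medians of all genes in deciles. Tanc2 and Pdzd2 sit at the far right of the length axis, where the line reaches 0.09; its left end is at -0.05.

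The TRAP libraries give the same genotype contrast in libraries that the choice did not use, although they may come from the same mice: TRAP and input libraries with the same number match in sex. In edgeR's quasi-likelihood test among 14145 genes, 0 of the 9 genes passed the adjusted threshold, which 0.00707% of all genes passed, and every adjusted p was 1.00. At an unadjusted p under 0.05 there were 2 of 9, against 1.50% of all genes: Slc16a11, with a log2 fold change of -0.60 ± 0.22 (unadjusted p = 0.0271, edgeR), and Rgl2, with -0.53 ± 0.23 (unadjusted p = 0.0467, edgeR). DESeq2's Wald test also gave 0 past the adjusted threshold and these 2 at an unadjusted p under 0.05. That lower bar was not stable: 0 of 9 met it with the replicate block (Slc16a11 at -0.47, Rgl2 at -0.37). The count was also 0 of 9 without TRAP KO replicate 2, TRAP KO replicate 4 or TRAP WT replicate 1. It was 1 of 9 with library totals, and 4 of 9 when input and TRAP were fitted together (14 libraries). That joint fit had a larger background: 1197 of 16042 genes met the bar, against 212 of 14145 with TRAP alone. It also includes the input libraries that chose the genes, so nothing is read from its count. For Slc16a11 and Rgl2, all 4 KO libraries were below all 3 WT libraries, as were those of 2.62% of the genes tested.

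The other genes had wide errors in TRAP. Abhd14b was at -0.60 ± 0.30 (unadjusted p = 0.0763, edgeR), nearly its input value, and Tanc2 at 0.32 ± 0.19 (unadjusted p = 0.129, edgeR). Adamts10 was at -0.22 ± 0.26, P3h3 at -0.21 ± 0.29, Spaca6 at -0.17 ± 0.29, Pdzd2 at 0.16 ± 0.31 and Leng8 at -0.02 ± 0.27, each within 1 SE of 0. The median over the 9 genes was -0.21, beside 0.0018 over all genes. All 9 had the sign of their input value, against 61.2% of 14013 genes tested in both fractions, but several of these values were so close to 0 that 1 library set the sign.

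One such library was TRAP KO replicate 4, the lowest of all TRAP libraries for P3h3, Adamts10, Leng8, Slc16a11, Abhd14b and Rgl2. Without it P3h3 was at 0.05, Adamts10 at 0.0014, Leng8 at 0.17 and Pdzd2 at -0.0042, so that their sign changed. Slc16a11 was then at -0.42 (unadjusted p = 0.0705, edgeR) and Rgl2 at -0.34 (unadjusted p = 0.118, edgeR), and none of the 9 had an unadjusted p under 0.05. Abhd14b (-0.32), Spaca6 (-0.21) and Tanc2 (0.20) kept their sign. Without TRAP WT replicate 2 the sign changed for Leng8 (0.26), Spaca6 (0.0246) and Pdzd2 (-0.0378). In TRAP KO replicate 4 the deciles of longest and shortest transcripts differed. The median deviation from the mean of the TRAP libraries was 0.18 higher in the longest, on the log2 scale. By this length measure TRAP WT replicate 2 (-0.34) and TRAP WT replicate 3 (0.24) deviated further. The decile richest in GC minus the poorest was -0.19 in TRAP KO replicate 4, the largest in size among the TRAP libraries. The part of length or GC in these values was not tested. Whether the genotype difference of any gene differs between input and TRAP was not tested.

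**Figure D3:**
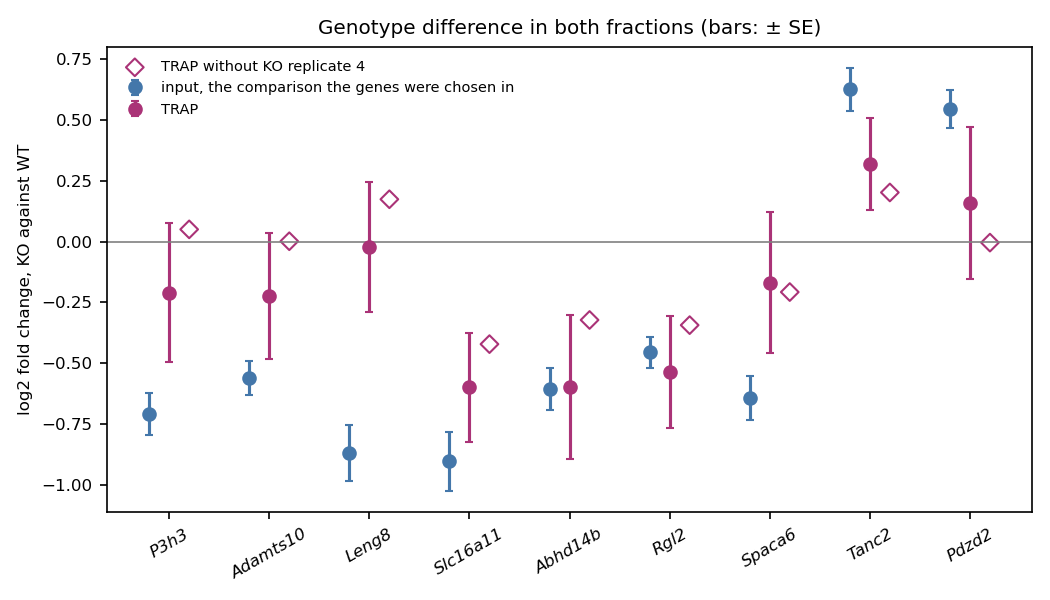
Log2 fold change of KO against WT ± SE for each gene in input (blue) and TRAP (purple), with the TRAP value without KO replicate 4 as open diamonds. TRAP bars reach or cross 0 for P3h3, Adamts10, Leng8, Spaca6 and Pdzd2, and the diamonds of Slc16a11, Abhd14b and Rgl2 stay between -0.42 and -0.32.

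Among the lists around these genes, 0 other genes passed the adjusted threshold for genotype in TRAP. Below 0 were 11 of 12 other transporter genes (median -0.16), 13 of 19 ABHD hydrolases (-0.07), 9 of 14 collagen hydroxylation genes (-0.07) and 9 of 22 ADAMTS, fibrillin and LTBP genes (0.03). Above 0 were 8 of 10 TANC scaffold genes (0.15), 5 of 7 PDZD and PDZRN genes (0.29), 9 of 13 Ral pathway genes (0.08), 4 of 6 TREX-2 genes (0.06) and 2 of 3 sperm-egg fusion genes (0.11). Of all genes tested in TRAP, 49.7% were below 0.

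Markers also moved in TRAP KO, with 0 past the adjusted threshold. All 3 choroid plexus markers tested were below 0, Ttr (-4.14) and Kl (-1.15) at an unadjusted p under 0.05 and Clic6 (-0.29) not. The summed level of the list was 84.8 to 105.2 CPM in KO and 114 to 203 CPM in WT. Clic6, which is part of that sum, was higher in TRAP than in input (2.81), whereas the 5 other markers of the list were lower. Of 12 Purkinje cell markers 10 were below 0 (median -0.07), Pcp2 (-0.55) at an unadjusted p under 0.05, and their sum was 82353 to 94254 CPM in KO and 90520 to 102657 CPM in WT. Prkcd (0.70), of the interneuron list, and Mir124a-1hg (-0.71), of the nuclear RNAs, also met that level, which 1.50% of all genes met. The part of these in the values of the 9 genes was not tested.

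The level on Purkinje cell ribosomes relative to whole cerebellum was tested in all 14 libraries as the mean over both genotypes, a contrast in which the genotype difference that chose the genes cancels. In edgeR's quasi-likelihood test 8 of the 9 genes were lower in TRAP past an adjusted p of 0.05; 83.6% of all 16042 genes tested passed in either direction and 43.8% were lower. Pdzd2 did not pass, at -0.04 ± 0.16 (adjusted p = 0.815, edgeR). The median log2 fold change over the 9 genes was -0.83, beside -0.11 over all genes.

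Leng8 and Adamts10 were furthest below input, with log2 fold changes of -2.58 ± 0.15 (adjusted p = 1.15e-09, edgeR) and -2.51 ± 0.13 (adjusted p = 3.40e-10). Slc16a11 followed with -1.99 ± 0.12 (adjusted p = 1.37e-09, edgeR) and P3h3 with -1.62 ± 0.13 (adjusted p = 5.08e-08). For each of these 4 genes the highest TRAP library was below the lowest input library. The share of all genes separated in this way is not given here, so nothing is read from it. Smaller differences were found for Abhd14b at -0.83 ± 0.15 (adjusted p = 1.10e-04, edgeR), Tanc2 at -0.71 ± 0.095 (8.32e-06), Spaca6 at -0.54 ± 0.15 (0.00355) and Rgl2 at -0.53 ± 0.11 (6.91e-04).

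Within WT alone Leng8 was at -2.97 and within KO alone at -2.20; these share the choice of genes through the input groups and are given as values only. Spaca6 was at -0.69 in WT and -0.39 in KO, Pdzd2 at 0.21 and -0.29, and Tanc2 at -0.56 and -0.85. Rgl2 was at -0.47 in WT and -0.58 in KO.

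Scaling bore on these values. With library totals in place of TMM the median of all genes moved by -0.78, the split of calls went from 6376 higher and 7031 lower to 3513 higher and 10394 lower, and Pdzd2 was then lower at -0.82 (adjusted p = 2.32e-04, edgeR), close to that shift. Transcript length bore on them as well: the median log2 fold change of TRAP against input went from 1.21 in the decile of shortest transcripts to -1.01 in the longest. After the length correction Tanc2 was at 0.34 (adjusted p = 0.00353, edgeR) and Pdzd2 at 0.92 (adjusted p = 2.76e-05), both higher in TRAP, while Leng8 (-2.21), Adamts10 (-2.34), Slc16a11 (-2.30), P3h3 (-1.71), Spaca6 (-1.34), Abhd14b (-1.22) and Rgl2 (-0.51) remained lower. The direction for Tanc2 and Pdzd2 therefore depends on whether length is corrected for.

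**Figure D4:**
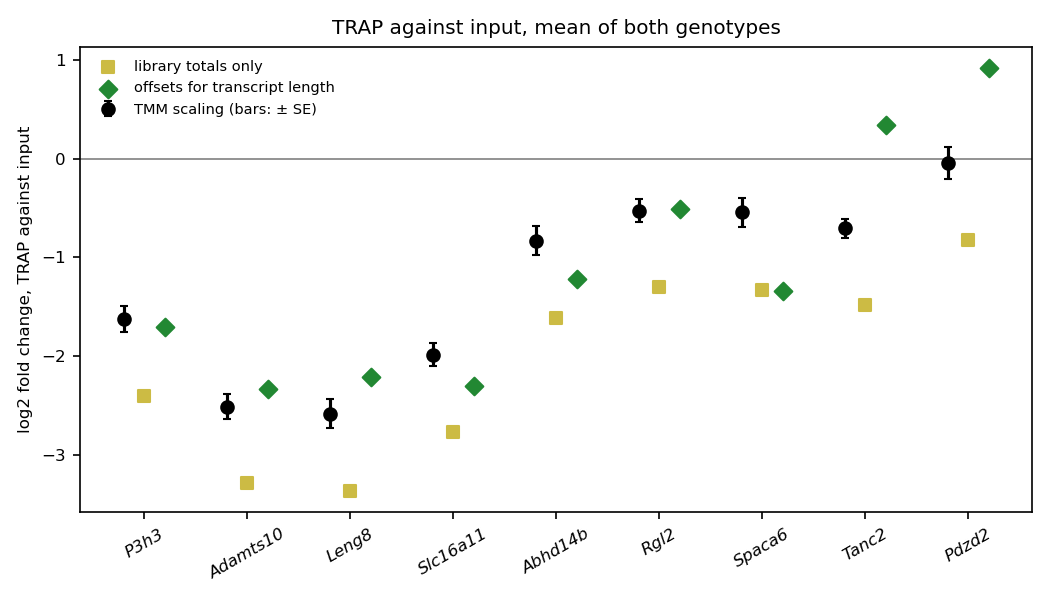
Log2 fold change of TRAP against input, mean of both genotypes, for each gene with TMM scaling (black, ± SE), library totals only (squares) and offsets for transcript length (diamonds). Leng8, Adamts10, Slc16a11 and P3h3 stay below -1.5 under all of these, whereas Tanc2 and Pdzd2 lie above 0 with the length offsets, at 0.34 and 0.92.

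Relatives of these genes differed widely in this contrast. Abhd14a was higher in TRAP, at 1.38 (adjusted p = 1.24e-06, edgeR), although it overlaps Abhd14b, and Leng9, which overlaps Leng8, was higher at 0.62 (adjusted p = 6.12e-06). P3h1 was lower at -1.20 (adjusted p = 1.87e-06, edgeR) like P3h3, and Mcm3ap at -0.90 (adjusted p = 3.57e-05). Slc16a13 (-0.46) and Ralgds (-0.60) were lower past the threshold, Adamts6 was lower (-3.34, adjusted p = 5.64e-08, edgeR) like its paralog Adamts10, Adamts17 was higher (0.87), and Tanc1 (0.0002) and Rgl1 (0.05) did not pass. Of the 28 other ADAMTS, fibrillin and LTBP genes, 22 were lower and 3 higher past the threshold, with a median of -1.41, and of 14 other collagen hydroxylation genes 9 were lower and 4 higher, including Crtap, the partner of P3h1, at 2.12. Of the 6 other TREX-2 genes 5 were higher past the threshold, as were 39.7% of all genes, and Mcm3ap was lower. All 8 nuclear long noncoding RNAs were lower, with a median of -3.57.

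Levels can be set side by side between genes only per length, here as CPM per kb of the longest annotated protein-coding transcript. In input WT the order was Leng8 at 25.9 ± 2.41 (SD, n = 4), Slc16a11 at 20.5 ± 2.59, Adamts10 at 16.8 ± 0.838, Rgl2 at 8.89 ± 0.709, Spaca6 at 8.19 ± 0.879, Abhd14b at 6.74 ± 0.683, P3h3 at 5.64 ± 0.859, Tanc2 at 2.10 ± 0.203 and Pdzd2 at 0.897 ± 0.0624. Rgl2 and Spaca6 lay within 1 SD of each other. The SD range of Abhd14b overlapped those of Spaca6 and P3h3. In TRAP WT the order of means was led by Rgl2 at 6.42 ± 0.331 (SD, n = 3), Spaca6 at 5.02 ± 1.40 and Slc16a11 at 4.84 ± 0.382, whereas Leng8 was at 3.33 ± 0.953 and Adamts10 at 2.66 ± 0.482. The SD range of Spaca6 in TRAP WT overlapped those of Rgl2, Slc16a11 and Leng8, and those of Leng8 and Adamts10 overlapped. Tanc2 (1.40 ± 0.180) and Pdzd2 (1.02 ± 0.482) had the lowest means in input WT and in TRAP WT, with overlapping SD ranges in TRAP WT. The SD range of P3h3 in TRAP WT (1.59 ± 0.121) also overlapped that of Tanc2. In TRAP KO P3h3 had a lower mean than Tanc2, at 1.44 against 1.68.

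The genes whose levels ran most like each member were sought by Pearson's r of log2(CPM + 1) over the 14 libraries among 16042 genes. They were Cnpy1 for Adamts10 (r = 0.995), Mirg for Leng8 (0.993), Echdc2 for P3h3 (0.989), Amigo3 for Slc16a11 (0.986), Bod1l for Tanc2 (0.973), Cyp11a1 for Spaca6 (0.946), Zfp296 for Abhd14b (0.942), Porcn for Rgl2 (0.938) and Usp32 for Pdzd2 (0.918). The points share library depth and fall into the TRAP and input fractions, and what makes a pair alike was not tested. Mirg, like Meg3, is a long noncoding RNA of the imprinted Dlk1-Dio3 region.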

How the data were processed

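The authors deposited 1 table of counts per gene for 14 libraries, keyed by Entrez number; the values are whole numbers and carry no normalization. Per the submitters' processing notes, Salmon 0.8.2 and mm10 were used; the role of each, the annotation and the strand setting are not given in the sources used here. The labels gave each library's group, sex and replicate number. Genes kept by filterByExpr were tested with edgeR 4.0.16 (R 4.3.3), quasi-likelihood, two-sided, TMM factors, sex as covariate and Benjamini-Hochberg adjustment over all genes at 0.05. TRAP and input were fitted apart for genotype; TRAP against input used all 14 libraries. SE is the log2 fold change over the square root of F. Replicates of a group differed by 8.63 to 267 in chi-square per degree of freedom, so none agree within sampling noise. Depth was 18.8 to 54.2 M counts.

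The 9 genes, the gene lists and the marker lists were chosen with earlier results of these data known. Named genes are these 9, Astn2, their closest family relatives, overlapping and adjacent genes, list genes past the threshold, input genes past the adjusted threshold with the next 5 non-members, and for each gene its most alike gene. List genes and markers named for an unadjusted p under 0.05, Kifc1 and Adamts6 were chosen after their values were seen. Alternatives were DESeq2 1.42.0 size factors and Wald test, library totals, no filter, no sex covariate, a replicate block, 1 fit of all libraries and each library left out. Offsets for transcript length and GC content (loess, span 0.3, GENCODE M21 transcripts) were added after seeing the data. The fits were tested on simulated data.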

Additional observations from a re-analysis of the deposited data

Results flagged for a closer look

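In TRAP KO, replicate 4 stood far below the other 3 libraries for P3h3 and for Adamts10. The gap to the nearest library was 0.839 of the whole range for P3h3 (log2(CPM + 1) of 1.77 against 2.44) and 0.856 for Adamts10 (2.79 against 3.48), above the critical value of Dixon's test for 4 samples. Of 18 sets of values examined, each gene in input WT and in TRAP KO, 2 were marked in this way, both through this library. Chance marks about 1 in 20 independent sets, but genes measured in the same libraries are not independent, so nothing is read from the count. Groups of 3 libraries were not examined.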

How the results depend on the processing

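Input genotype values of the 9 genes kept their direction in all 144 alternative values, which the choice of the genes on these libraries largely fixes. Of 144 TRAP genotype values 15 changed sign; none of the 9 genes passed the adjusted threshold under any of the 16 alternatives. Sign changed for Leng8 with library totals (0.0349), no sex covariate (0.0199) and the replicate block (0.187), for P3h3 (0.0326) and Pdzd2 (-0.0015) with the block, and for some left-out libraries: over these, Leng8 ran from -0.222 to 0.258, P3h3 from -0.455 to 0.0502, Adamts10 from -0.443 to 0.0014, Spaca6 from -0.443 to 0.0246 and Pdzd2 from -0.0378 to 0.535. In TRAP against input Tanc2 (0.340) and Pdzd2 (0.919) changed sign with length offsets, and Pdzd2 ran from -0.278 to 0.0473 with a library left out; 8 to 9 of the 9 genes passed throughout. The cause was not tested beyond these settings.

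Over all genes, the genotype count in TRAP was 1, with 3 in DESeq2's Wald test, 2 with all 14 libraries in one fit and 1 to 2 with a library left out. In input it was 3, with 5 under DESeq2 size factors, 23 without a filter, 292 in DESeq2's Wald test, 1 with the replicate block and 1 to 158 with a library left out, 158 being without input KO replicate 2. The labels do not say what a shared number marks; correlations of the deviations of same-numbered samples ran from -0.196 to 0.292. Replicates 1 to 3 each correlated best with their own number between input and TRAP (3 of 3 in each genotype). The same held in input KO against WT (3 of 3), but not in TRAP KO against WT (0 of 3). For replicate 3 the correlation was still negative between input KO and TRAP KO (-0.124) and between input KO and input WT (-0.026). With the block 8 of the 9 genes passed in TRAP against input. The SE of TRAP genotype values of the 9 genes was 0.19 to 0.31. Both fractions had groups of 3 to 4 libraries. Over all genes the median SE for genotype was 0.227 in TRAP and 0.0976 in input. The coefficient of variation between replicates fitted by edgeR was 0.247 in TRAP and 0.109 in input. The reason for this difference was not tested.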
